A study of Homo sapiens with 6 samples.

Results

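The genes examined here encode the machinery that brings proteins into mitochondria and the chaperones and proteases that fold, cut and degrade them once inside. Of 43 listed genes, 42 were measured, through the 495 probe sets that the platform annotation assigns to 1 of these genes and to no other, out of 259224 such probe sets and 352859 on the array. TOMM6, a small subunit of the outer membrane translocase, was not analysed here, because each of its 16 probe sets is also assigned to PRICKLE4. The measured genes were grouped by role into 8 of the translocase of the outer membrane (TOM), 14 of the translocases of the inner membrane (TIM), 7 chaperones, 9 proteases and 4 other import genes. Between 1 and 26 probe sets measured each gene, with a median of 11.

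The cells were NK-92MI, an interleukin-2-independent human natural killer (NK) cell line, and all groups were grown in the same medium. In 3 samples, 5 µg of mitochondria isolated from WRL-68 cells, which the study used as normal hepatocytes, had been moved into the cells by centrifugation (mitochondrial transfer). The other 3 samples were control NK-92MI cells that received none. Total RNA was hybridised to Affymetrix whole-transcript arrays, 1 sample to an array, and each value is the log2 intensity of a probe set of about exon size. Neither the labels nor the methods say whether the control cells of the arrays were centrifuged, how long after transfer the RNA was taken, or whether replicates were separate cultures, so the p-values measure only the spread between these samples, which may be technical.

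Nearly all mitochondrial proteins are encoded in the nucleus, made in the cytosol and imported. They are recognised by receptors and pass through a pore in the outer membrane, and are then sorted to the matrix by the TIM23 translocase and its HSPA9 motor, or to the inner membrane by small chaperones and the TIM22 translocase. In the matrix the targeting sequence is cut off, chaperonins fold the protein, and proteases remove what is misfolded or surplus. NK cells draw on mitochondrial respiration for their proliferation and killing, and the mRNA levels of this machinery were therefore compared between cells that had received mitochondria and cells that had not.

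The sequence upstream of each start site is shown for 5 of the genes described below. On the probe set with the highest mean, TIMM10, TOMM40, TRAP1 and HSPD1 were lower after transfer and LONP1 was higher. None of the 5 passed the adjusted threshold in the main fits given below, and regulation through these sequences was not tested. RefSeq gave the window of 250 bases before to 50 bases after the start site (build GRCh38.p14) for 38 of the 43 genes; those not matched were CLPP, GRPEL1, TIMM8B, TOMM5 and YME1L1. Capitals mark matches, on either strand, to 6 motifs that were searched: TGCGCANGC (core of the NRF1 element), CCGGAAG (ETS family), CACGTG (E-box), TGACGTCA (cyclic AMP response element), GAANNTTC (heat shock element) and GGGGCGG (SP1), and overlapping matches were allowed.
TIMM10 (chr11:57530705-57531004, minus strand): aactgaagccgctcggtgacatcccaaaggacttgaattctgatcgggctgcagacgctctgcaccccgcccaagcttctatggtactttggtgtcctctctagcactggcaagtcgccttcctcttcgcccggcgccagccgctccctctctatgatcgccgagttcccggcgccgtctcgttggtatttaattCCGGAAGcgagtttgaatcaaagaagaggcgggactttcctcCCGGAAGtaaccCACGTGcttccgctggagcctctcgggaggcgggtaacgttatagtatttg
TOMM40 (chr19:44891004-44891303, plus strand): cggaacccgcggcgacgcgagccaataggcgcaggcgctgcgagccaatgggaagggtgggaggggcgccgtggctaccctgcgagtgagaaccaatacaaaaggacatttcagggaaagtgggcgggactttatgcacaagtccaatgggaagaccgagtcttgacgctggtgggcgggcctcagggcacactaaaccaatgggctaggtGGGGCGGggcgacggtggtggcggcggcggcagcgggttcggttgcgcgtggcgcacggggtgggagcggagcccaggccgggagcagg
TRAP1 (chr16:3717475-3717774, minus strand): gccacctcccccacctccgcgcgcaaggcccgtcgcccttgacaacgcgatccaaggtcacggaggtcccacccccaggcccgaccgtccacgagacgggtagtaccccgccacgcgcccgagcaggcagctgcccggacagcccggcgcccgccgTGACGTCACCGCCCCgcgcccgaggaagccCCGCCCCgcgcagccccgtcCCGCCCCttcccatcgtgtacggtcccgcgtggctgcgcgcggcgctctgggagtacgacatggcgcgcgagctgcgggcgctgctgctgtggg
LONP1 (chr19:5720097-5720396, minus strand): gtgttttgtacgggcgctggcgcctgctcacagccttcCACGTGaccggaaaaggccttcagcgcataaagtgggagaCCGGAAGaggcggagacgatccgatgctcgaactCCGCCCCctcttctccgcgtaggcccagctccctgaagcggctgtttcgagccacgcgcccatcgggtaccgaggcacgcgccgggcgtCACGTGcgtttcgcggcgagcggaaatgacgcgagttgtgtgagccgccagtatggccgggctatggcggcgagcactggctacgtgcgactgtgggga
HSPD1 (chr2:197500225-197500524, minus strand): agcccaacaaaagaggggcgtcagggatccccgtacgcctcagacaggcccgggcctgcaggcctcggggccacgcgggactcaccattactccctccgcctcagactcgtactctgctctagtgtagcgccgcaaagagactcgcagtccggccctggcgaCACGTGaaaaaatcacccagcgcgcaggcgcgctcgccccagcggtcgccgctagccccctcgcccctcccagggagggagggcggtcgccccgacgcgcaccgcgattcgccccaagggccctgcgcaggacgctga
TIMM10 held 2 ETS motifs and an E-box at its start site, and LONP1 held 2 E-boxes, an ETS motif and an SP1 motif. TRAP1 was the only one of the 38 genes with the cyclic AMP response element, which lay directly beside 1 of its 3 SP1 motifs. HSPD1 and HSPE1, the genes of the chaperonin and its lid, lie head to head on chromosome 2 with start sites 105 bases apart. Their windows overlap by 204 bases and share 1 E-box. An ETS motif was found in 13 of the 38 windows (34.2%), against 10.3% of all 35116 promoters, an SP1 motif in 16 (42.1%, against 30.8%), an E-box in 7 (18.4%, against 7.26%) and the NRF1 core element in 5 (13.2%, against 4.39%). The cyclic AMP response element was in 1 window (2.63%, against 1.85%) and the heat shock element in none, against 6.77% of all promoters. The 35116 promoters were counted without regard to gene type or expression, and no comparison with similar genes was made. These matches describe letters in the windows and are no evidence of binding.

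All 42 genes lay above background, which was taken as the 95th percentile of 367 olfactory receptor genes (6.59 on the log2 scale). Over all genes, 71.9% lay above it. Pearson's r between arrays was 0.961 to 0.983 across genes, which are not independent replicates, and with so few arrays every value has limited precision. As a check of the cell type, all 14 measured NK cell markers were above background, including NCAM1 (mean log2 intensity 12.32), and their median per array was 10.64 to 10.76 after transfer and 11.07 to 11.16 in control cells, with 13 of 14 markers lower after transfer. On the brightest probe set of each gene (highest mean over the arrays), the median per array of 10 hepatocyte markers was 7.50 to 7.58 after transfer and 7.03 to 7.43 in control cells. Of them 8, including ALB, lay above background, and 7 were higher after transfer and 3 lower, among them ALB (9.29 against 9.64). On the median of each gene's probe sets the groups overlapped, with 4.75 to 5.04 after transfer and 4.65 to 5.28 in control cells. There 5 hepatocyte markers were higher and 5 lower. For 8 epithelial markers the median per array on the brightest probe set was 7.51 to 7.89 after transfer and 7.72 to 7.81 in control cells, with 7 above background. For 9 T, B and myeloid cell markers it was 6.69 to 7.26 after transfer and 6.74 to 6.87 in control cells, with 6 above background. The part of these marker shifts in the values below was not tested, and in bulk RNA a change in the kinds of cells cannot be told apart from a change in RNA per cell.

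Most genes of the import and quality control machinery had slightly lower mRNA intensities after mitochondrial transfer, and 1 gene, the chaperone DNAJA3, rose on a single probe set. Each gene was first represented by its brightest probe set, the one with the highest mean over the 6 arrays. On it 30 of the 42 genes were lower after transfer and 12 higher, with a median log2 difference (transfer minus control) of −0.15, where the median over all 22260 genes was 0.00 and that over the genes above background −0.01. When each gene was instead represented by the median of its probe sets, 33 were lower and 9 higher, with a median of −0.22 against −0.04 over all genes. Of the 495 probe sets, 357 (72.1%) were lower, against 56.2% of all probe sets, and among those above background 280 of 383 (73.1%) were lower, against 61.5%. Bright genes in general lay somewhat lower after transfer, and the 42 genes all fell in the upper 5 of 10 brightness deciles. In the brightest 2 deciles the median difference of all genes was −0.05 and −0.07 on the brightest probe set and −0.12 in both on the median of probe sets.

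**Figure D1:**
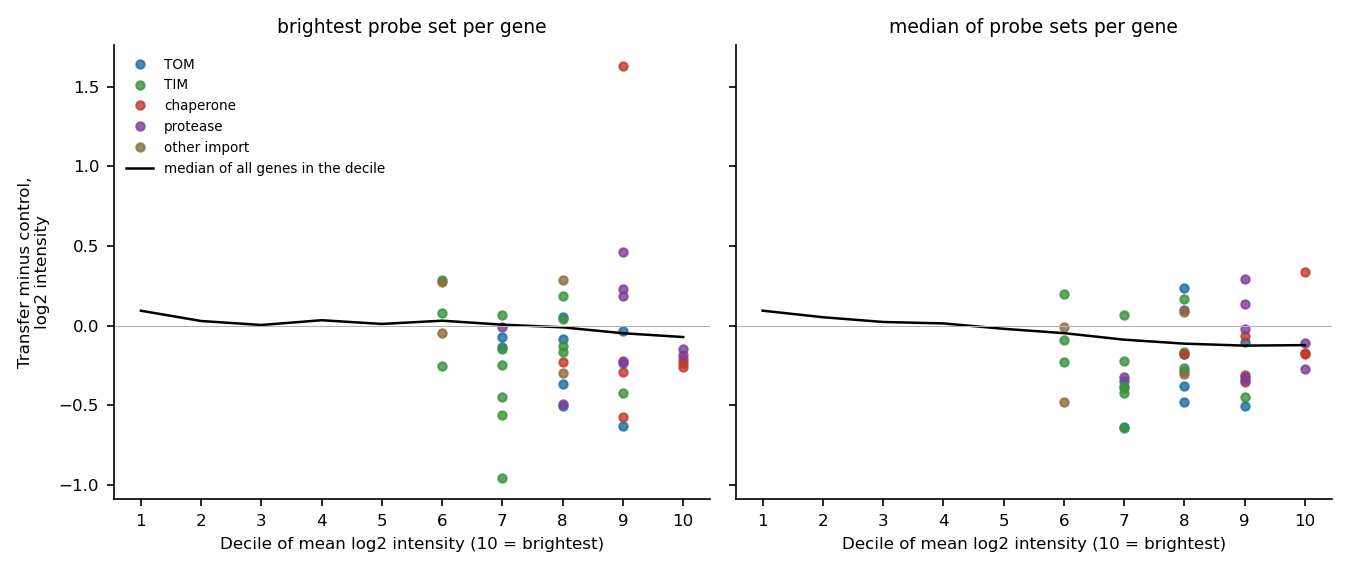
Log2 difference (transfer minus control, vertical axis) of each of the 42 genes by its decile of mean log2 intensity (horizontal axis, 10 = brightest), on the brightest probe set (left) and the median of the gene's probe sets (right). The black line is the median of all genes in a decile, and 30 (left) and 33 (right) of the points lie below 0.

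Few of these differences passed the test across all genes, although the groups did not overlap for 18 of the 42. In limma, with Benjamini-Hochberg adjustment over all genes and a threshold of 0.05, 1 of the 42 genes was higher on its brightest probe set (1.74% of all genes were) and 0 were lower (0.234% of all genes). At an unadjusted p under 0.05, 2 were higher (10.6% of all genes) and 7 lower (7.31% of all genes). The 3 transfer values all lay above the 3 control values for 3 genes (13.9% of all genes) and all below them for 15 (11.8% of all genes). Without control replicate 3, the number at an unadjusted p under 0.05 was 5 in place of 9. On the median of probe sets, limma called 0 genes higher (0.0629% of all genes) and 0 lower (0.00898%). At an unadjusted p under 0.05 it gave 0 higher (5.27% of all genes) and 10 lower (8.14%), and the groups did not overlap for 1 gene with higher values (7.49% of all genes) and 16 with lower values (13.3%). Of the single probe sets, limma called 0 higher (0.0652% of all probe sets) and 0 lower (0.00424%), with 6 higher (4.58%) and 43 lower (5.46%) at an unadjusted p under 0.05. Among all genes, lower values without overlap were more frequent the brighter the decile, with 10.5% in the sixth and 27.7% in the brightest decile on the brightest probe set and 11.4% and 28.9% on the median. The 15 and 16 of 42 are to be read against these shares, as the 42 genes lie in that range of deciles, and limma called none of them lower. With its trend and robust options limma called 4 genes on the brightest probe set, with TIMM10, TOMM40 and TRAP1 lower beside the higher DNAJA3. The share of all genes called with these options was not counted, so the 4 cannot be set against it.

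**Figure D2:**
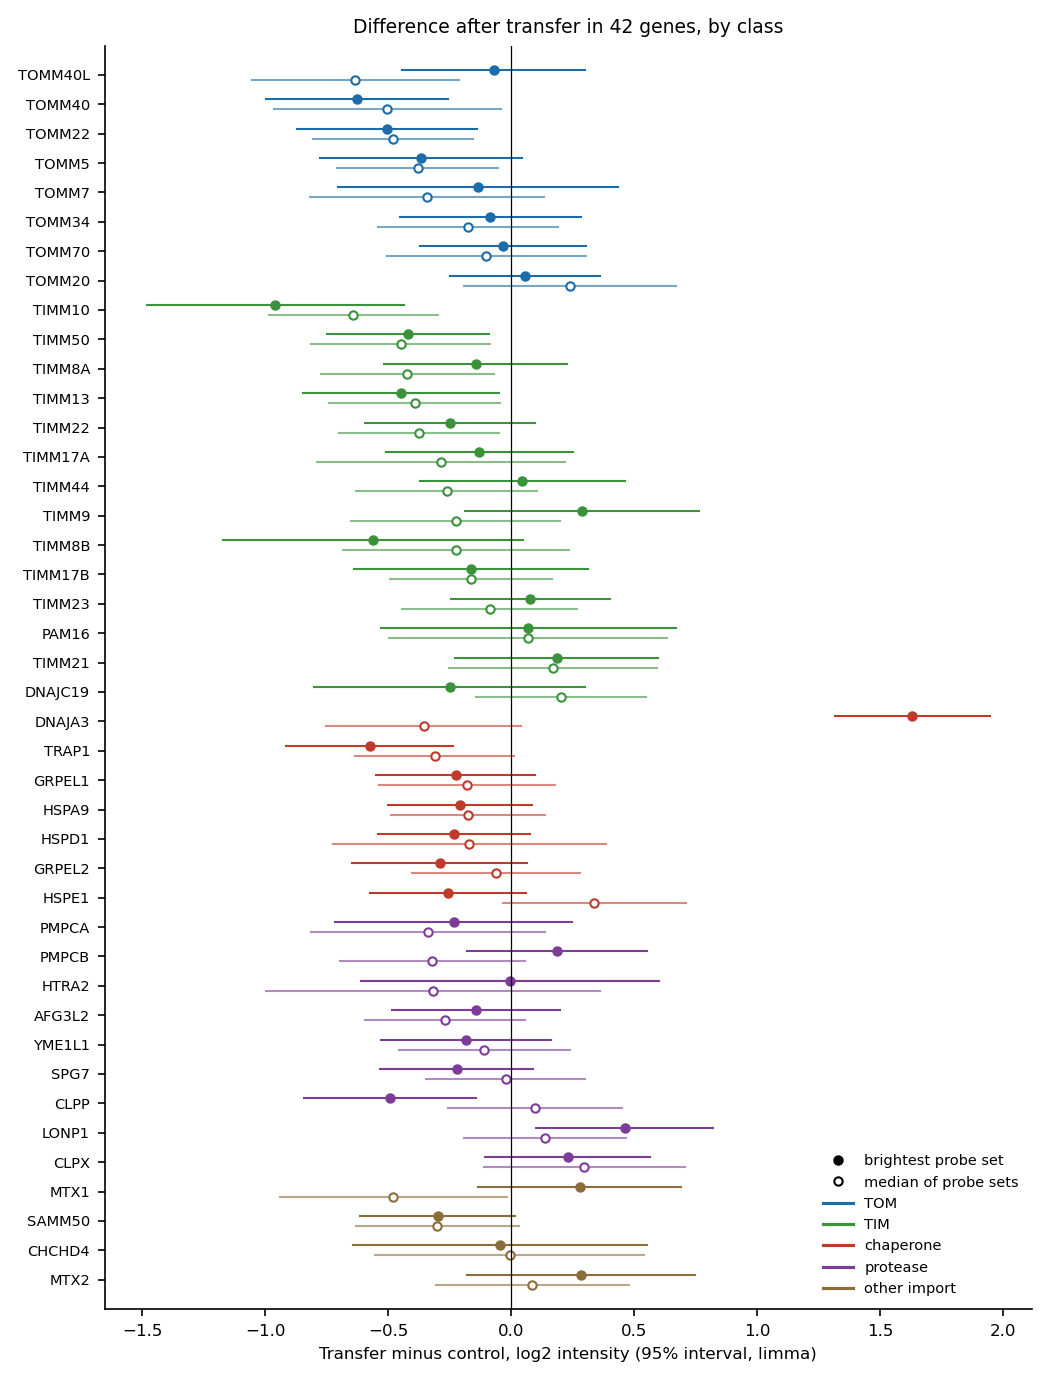
Log2 difference (transfer minus control, horizontal axis) with its 95% interval from limma for each of the 42 genes, on the brightest probe set (filled points) and the median of the gene's probe sets (open points), coloured by class. On the brightest probe set 7 intervals lie wholly below 0 and 2, those of DNAJA3 and LONP1, wholly above it.

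The summaries had the same sign for 33 genes, of which 27 were lower and 6 higher on both, and opposite signs for 9. On both summaries at once, 10 genes had lower values after transfer with no overlap between the groups, namely TOMM5, TOMM22, TOMM40, TIMM10, TIMM13, TIMM50, GRPEL1, HSPA9, TRAP1 and SAMM50, and 0 genes had higher values in this way. The share of all genes lower without overlap on both at once was not counted. On each summary alone it was 11.8% and 13.3% and rose with brightness, so the 10 are not read as a result about these genes. More than 50% of the probe sets were lower for 34 genes and higher for 7. Every probe set was lower for 6 genes measured by several, and every one was higher for TOMM20 alone.

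Among the TOM genes, 7 of 8 were lower on the brightest probe set (median −0.11) and 7 of 8 on the median of probe sets (median −0.36). Of their 77 probe sets, 61 (79.2%) were lower. None passed the adjusted threshold, and 2 were lower at an unadjusted p under 0.05 on the brightest probe set. TOMM40 forms the pore through which nearly all precursors cross the outer membrane. Its brightest probe set read 10.27, 9.96 and 9.96 in transfer samples 1 to 3, against 10.74, 10.80 and 10.53 in control samples 1 to 3. All 3 transfer values lay below the control values. The log2 difference was −0.63 (standard error 0.16, 95% interval −0.995 to −0.26, limma adjusted p = 0.114), and all 11 probe sets of the gene were lower after transfer, by 0.04 to 0.71.

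TOMM22, the central receptor that passes precursors to the pore, read 9.45, 9.36 and 9.69 after transfer, against 10.03, 9.84 and 10.14 in control cells. With no overlap between the groups, the difference was −0.50 (standard error 0.15, limma adjusted p = 0.169), with 5 of 6 probe sets lower. TOMM5, a small subunit that helps to assemble the complex, read 9.35, 9.56 and 9.18 after transfer, against 9.60, 9.60 and 9.98 in control cells. Its difference was −0.37 (standard error 0.17, limma adjusted p = 0.325), and all 6 of its probe sets were lower.

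TOMM40L, a close relative of TOMM40, differed between the summaries. Its brightest probe set overlapped between the groups, with 9.10, 8.995 and 8.97 after transfer and 8.84, 9.22 and 9.23 in control cells (difference −0.07). The median of its 15 probe sets, of which 14 were lower, was 7.27, 6.83 and 7.27 after transfer, against 7.55, 7.84 and 7.88 in control cells. That difference was −0.63 (standard error 0.18, limma adjusted p = 0.253), and the groups did not overlap.

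TOMM20, the receptor that binds cleavable targeting sequences and a common marker of mitochondria, was the 1 TOM gene above 0. Its brightest probe set read 9.79, 9.74 and 9.78 after transfer, against 9.67, 9.63 and 9.83 in control cells. The groups overlapped, the difference was 0.06 (95% interval −0.25 to 0.36, limma adjusted p = 0.85) on the brightest probe set and 0.24 (limma adjusted p = 0.611) on the median, and all 4 probe sets were higher. With arrays centred on their medians the difference of the brightest was −0.024. TOMM70A (current symbol TOMM70), the receptor for carrier proteins, had differences of −0.03 and −0.10 on the brightest probe set and the median. TOMM7, a small subunit, had −0.13 and −0.34, and TOMM34, a cytosolic co-chaperone of precursors, had −0.08 and −0.18, and the groups overlapped for these 3 genes on both summaries.

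Among the TIM genes, 9 of 14 were lower on the brightest probe set (median −0.15) and 11 of 14 on the median of probe sets (median −0.24). Of their 104 probe sets, 78 (75.0%) were lower. None passed the adjusted threshold in limma, 3 were lower at an unadjusted p under 0.05 on the brightest probe set, and none was higher. TIMM10, 1 of the small chaperones that guide membrane proteins across the intermembrane space, had the most negative difference of the 42 genes. Its brightest probe set read 8.001, 8.64 and 8.53 after transfer, against 9.06, 9.47 and 9.52 in control cells. The highest transfer value lay below the lowest control value, and the difference was −0.96 (standard error 0.22, 95% interval −1.48 to −0.43, limma adjusted p = 0.0935). On the median of its probe sets it read 7.62, 7.87 and 7.61 after transfer, against 8.28, 8.43 and 8.31 in control cells. That difference was −0.64 (limma adjusted p = 0.202), and 6 of 7 probe sets were lower.

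The other small chaperones of the intermembrane space varied. TIMM13 read 8.17, 8.49 and 8.55 after transfer, against 8.69, 9.04 and 8.82 in control cells, without overlap. Its difference was −0.45 (standard error 0.17, limma adjusted p = 0.233), and all 4 of its probe sets were lower. TIMM8A, the partner of TIMM13 and the gene mutated in a deafness and dystonia syndrome, overlapped on its brightest probe set, with 8.98, 9.12 and 8.89 after transfer and 8.91, 9.26 and 9.25 in control cells (difference −0.14). On the median of its 5 probe sets it read 7.93, 7.74 and 7.71 after transfer, against 8.27, 8.33 and 8.05 in control cells (difference −0.42, limma adjusted p = 0.319), without overlap. TIMM8B had differences of −0.56 on the brightest probe set and −0.22 on the median. TIMM9, which forms a complex with TIMM10, had opposite signs, with 0.29 and −0.22, and 4 of its 12 probe sets lay above background.

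TIMM50 is the receptor of the TIM23 translocase, which carries proteins with a targeting sequence into the matrix. It read 9.74, 9.69 and 9.59 after transfer, against 10.03, 9.99 and 10.26 in control cells. No transfer value reached the lowest control value, the difference was −0.42 (standard error 0.14, limma adjusted p = 0.194), and 10 of 11 probe sets were lower. The channel subunits TIMM17A and TIMM17B had differences of −0.13 and −0.16 on the brightest probe set and −0.29 and −0.16 on the median, with 10 of 11 and 8 of 10 probe sets lower. TIMM23, the channel protein itself, was measured by 2 probe sets, since 3 others are shared with TIMM23B, and its differences were 0.08 and −0.09. TIMM21, which couples the translocase to the outer membrane complex, had 0.18 and 0.17. Of the subunits of the import motor, TIMM44 had 0.05 and −0.26, DNAJC19 had −0.25 and 0.20, and PAM16, on its only probe set of its own, had 0.07. TIMM22, the channel for carrier proteins, had −0.25 and −0.37, and all 5 of its probe sets were lower.

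**Figure D3:**
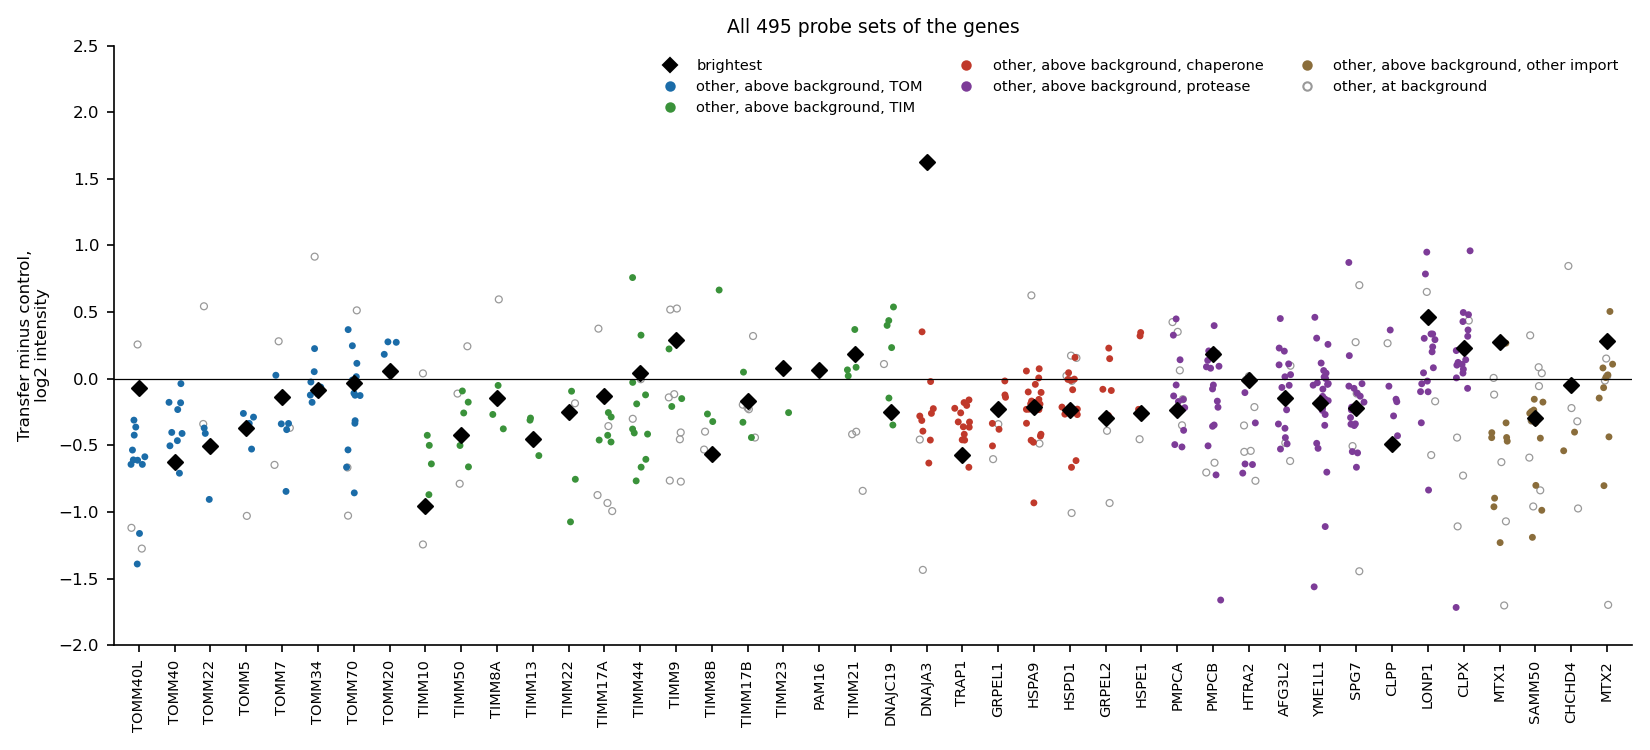
Log2 difference (transfer minus control, vertical axis) of all 495 probe sets, by gene and coloured by class. Diamonds are the brightest probe set of each gene and open circles are probe sets at background, and 357 of the points lie below 0. The diamond of DNAJA3 (1.63) is the highest of the gene's probe sets, and the lowest of them lies at −1.43.

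Among the chaperones, 6 of 7 were lower on the brightest probe set (median −0.23) and 6 of 7 on the median of probe sets (median −0.18). Of their 91 probe sets, 76 (83.5%) were lower. DNAJA3 encodes TID1, a J-domain protein that delivers substrates to HSPA9. Its brightest probe set read 11.21, 11.19 and 11.37 after transfer, against 9.66, 9.53 and 9.70 in control cells. DNAJA3 was the 1 gene of the 42 past the threshold, with a difference of 1.63 (standard error 0.13, 95% interval 1.31 to 1.95, limma adjusted p = 0.00161), and an adjusted p of 0.00925 to 0.0161 in the 6 fits that left out 1 array, all on the same probe set.

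The rise of DNAJA3 was on 1 of its 12 probe sets. Of the others, 1 was higher, by 0.35, and 10 were lower, by up to 1.43. The next brightest, which was the brighter one in control cells, read 9.63, 10.14 and 10.01 after transfer, against 10.36, 10.10 and 10.10 in control cells (difference −0.26). The tested probe set was thus the brightest of the gene only through the transfer arrays (mean 11.26 after transfer and 9.63 in control cells, where the next brightest had 9.93 after transfer and 10.19 in control cells), and a choice by the mean of all arrays favours a probe set that is high after transfer. Over all genes this choice gave 388 higher and 52 lower calls. Higher calls also outnumbered lower ones without it, with 14 and 2 on the median of probe sets and 169 and 11 over all single probe sets. The part of the choice in these counts was not tested. On the median of its probe sets DNAJA3 read 7.89, 7.63 and 8.02 after transfer, against 8.01, 8.37 and 8.22 in control cells, a difference of −0.36 (limma adjusted p = 0.416). Tested among all 259224 probe sets, the bright one had an adjusted p of 0.0819 in limma. Which part of the transcript the probe set covers was not analysed here.

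TRAP1, the mitochondrial member of the HSP90 family, read 10.02, 10.36 and 10.30 after transfer, against 10.76, 10.82 and 10.83 in control cells. The groups did not overlap and the difference was −0.58 (standard error 0.14, 95% interval −0.92 to −0.24, limma adjusted p = 0.114). All 14 probe sets of TRAP1 were lower, by 0.16 to 0.66. On their median TRAP1 read 9.47, 9.54 and 9.33 after transfer, against 9.72, 9.79 and 9.76 in control cells (difference −0.31, limma adjusted p = 0.386).

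HSPA9 (mortalin), the HSP70 that pulls proteins into the matrix, was the brightest of the 42 genes, although intensities of different probe sets do not rank mRNA levels. It read 13.34, 13.31 and 13.27 after transfer, against 13.49, 13.59 and 13.47 in control cells. No values overlapped, and the difference was −0.21 (95% interval −0.50 to 0.08, limma adjusted p = 0.424), with 21 of 25 probe sets lower. It was −0.091 after quantile normalisation, −0.093 after cyclic loess and −0.032 on the median of probe sets above background. Its nucleotide exchange factors were GRPEL1, for which all 9 probe sets were lower (difference −0.23 on the brightest), and GRPEL2. GRPEL2 read 9.98, 10.26 and 10.37 after transfer, against 10.44, 10.47 and 10.57 in control cells, a difference of −0.29 (limma adjusted p = 0.361), and −0.06 on the median.

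HSPD1, the folding chamber of the matrix, read 12.11, 12.02 and 12.18 on its brightest probe set after transfer, against 12.30, 12.44 and 12.26 in control cells. Again without overlap, the difference was −0.23 (limma adjusted p = 0.402), with 13 of 18 probe sets lower. It was −0.14 after quantile normalisation, −0.15 after cyclic loess and −0.012 on the median of probe sets above background. HSPE1, the lid of that chamber, read 10.73, 10.83 and 10.95 after transfer, against 11.01, 11.18 and 11.10 in control cells. That difference was −0.26 (limma adjusted p = 0.368), also without overlap. The median of its 5 probe sets gave the opposite sign, with 9.05, 8.86 and 8.76 after transfer, against 8.71, 8.58 and 8.37 in control cells (difference 0.34, limma adjusted p = 0.41). HSPD1 has 3 further probe sets shared with the pseudogene HSPD1P1 and HSPE1 has 2 shared with HSPE1-MOB4, which were left out, and cross-hybridisation of the remaining ones with related transcripts was not tested.

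**Figure D4:**
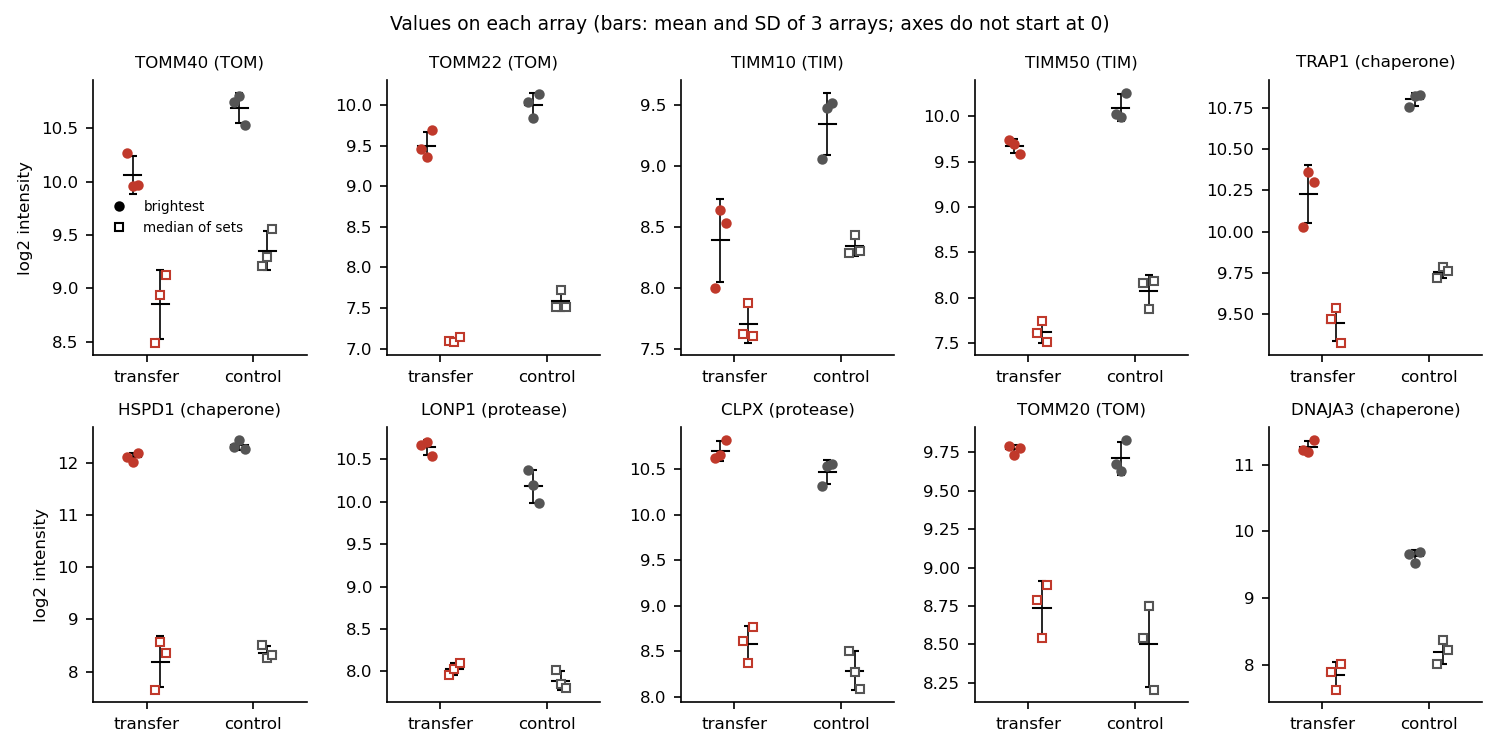
Log2 intensity (vertical axes, which do not start at 0) on each of the 3 transfer (red) and 3 control (grey) arrays for 10 of the genes. Filled circles are the brightest probe set, open squares the median of the gene's probe sets, and bars the mean and SD. The groups do not overlap on either summary for TOMM40, TOMM22, TIMM10, TIMM50 and TRAP1, and overlap on both for TOMM20.

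The proteases had the smallest share of lower probe sets of the 5 classes. On the brightest probe set 6 of 9 were lower (median −0.14) and on the median of probe sets 6 of 9 (median −0.11), and 101 of 167 probe sets (60.5%) were lower. Among those above background, 59.6% were lower, close to the 61.5% of all such probe sets. None passed the adjusted threshold in limma, with 1 gene higher and 1 lower at an unadjusted p under 0.05 on the brightest probe set. LONP1 encodes the ATP-dependent protease that clears damaged proteins from the matrix. It read 10.68, 10.71 and 10.54 after transfer, against 10.37, 10.20 and 9.98 in control cells. All 3 transfer values lay above the control values, the difference was 0.46 (standard error 0.15, 95% interval 0.10 to 0.82, limma adjusted p = 0.19), and 12 of 20 probe sets were higher. On their median the difference was 0.14 (limma adjusted p = 0.708), and the groups overlapped.

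The subunits of the other soluble matrix protease, ClpXP, pointed in opposite directions on the brightest probe set. CLPX, its unfolding subunit, read 10.63, 10.65 and 10.83 after transfer, against 10.32, 10.54 and 10.56 in control cells. The groups did not overlap and the difference was 0.23 (limma adjusted p = 0.442), and 16 of 21 probe sets were higher, with 0.30 on their median (8.62, 8.37 and 8.76 after transfer, against 8.50, 8.27 and 8.08 in control cells, limma adjusted p = 0.497) and 0.022 on their mean. CLPP, its cutting subunit, read 9.30, 9.62 and 9.44 after transfer, against 9.84, 9.92 and 10.07 in control cells, without overlap. Its difference was −0.49 (standard error 0.15, limma adjusted p = 0.163), but 0.10 on the median of its 8 probe sets, of which 6 were lower.

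Of the membrane-bound proteases, SPG7, a subunit of the m-AAA protease of the inner membrane, read 10.51, 10.53 and 10.36 after transfer, against 10.60, 10.70 and 10.77 in control cells. All transfer values lay below the control values, and the difference was −0.22 (limma adjusted p = 0.425), with 19 of 23 probe sets lower. Its median over probe sets gave −0.021 (limma adjusted p = 0.962), with overlap. AFG3L2, the partner of SPG7, read 10.91, 11.04 and 10.81 after transfer, against 11.06, 10.92 and 11.21 in control cells, with overlap (difference −0.14). On the median of its probe sets AFG3L2 read 8.04, 7.85 and 8.05 after transfer, against 8.25, 8.29 and 8.22 in control cells, without overlap (difference −0.27, limma adjusted p = 0.446). YME1L1, the protease on the other face of the inner membrane, had −0.18 and −0.11, from 26 probe sets of its own, and 64 others that the annotation shares with further genes were left out. HTRA2, a protease of the intermembrane space, had −0.01 and −0.32, and 12 of its 13 probe sets were lower. Only 6 of the 13 lay above background, and all 6 were lower.

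The matrix peptidase that cuts off targeting sequences is made of PMPCA and PMPCB. PMPCA had differences of −0.23 on the brightest probe set and −0.34 on the median, with overlap on both. PMPCB had opposite signs, with 10.23, 10.08 and 10.33 after transfer and 10.02, 9.85 and 10.21 in control cells on the brightest probe set (difference 0.19), against −0.32 on the median. The median read 8.81, 8.39 and 8.43 after transfer, against 8.82, 8.92 and 8.86 in control cells (limma adjusted p = 0.435). A single PMPCB probe set read 8.98, 8.25 and 8.42 after transfer, against 10.32, 10.03 and 10.27 in control cells. Its difference of −1.66 (standard error 0.26, limma adjusted p = 0.174 over all probe sets) passed the threshold in limma when only probe sets above background were tested (adjusted p = 0.0247). A fall of this size on 1 probe set was not particular to PMPCB. The lowest probe sets of CLPX, MTX1 and MTX2 had differences of −1.72, −1.70 and −1.70.

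Of the 4 other import genes, 2 were lower on the brightest probe set (median 0.12) and 3 on the median of probe sets (median −0.15), with 41 of 56 probe sets (73.2%) lower. None passed the adjusted threshold in limma, and 1 was lower at an unadjusted p under 0.05 on the median. SAMM50, the core of the machinery that inserts barrel-shaped proteins into the outer membrane, read 9.51, 9.58 and 9.73 after transfer, against 9.83, 9.98 and 9.91 in control cells. The groups did not overlap, the difference was −0.30 (standard error 0.13, limma adjusted p = 0.301), and 17 of 20 probe sets were lower. Its partner MTX1 read 8.04, 8.57 and 8.42 on the brightest probe set after transfer, against 7.99, 8.19 and 8.01 in control cells (difference 0.28, limma adjusted p = 0.451). On the median of its 15 probe sets MTX1 read 6.45, 6.67 and 6.80 after transfer, against 7.14, 7.44 and 6.78 in control cells (difference −0.48, limma adjusted p = 0.36), and 12 of them were lower. MTX2, a second partner, read 9.87, 9.63 and 9.51 after transfer, against 9.16, 9.73 and 9.27 in control cells (difference 0.28, limma adjusted p = 0.492), with overlap, and had 0.09 on the median and −0.14 on the mean of its probe sets. CHCHD4, the oxidoreductase that traps small cysteine-rich proteins in the intermembrane space, had −0.05 and −0.01. The median of its probe sets lay at background, with 6.48 after transfer and 6.49 in control cells.

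Genes of neighbouring processes were measured in the same way. They were further import and processing genes, mitochondrial quality control, the MICOS complex that shapes the inner membrane folds, cytosolic chaperones of precursors and transcription factors of the mitochondrial stress response. Of 43 measured, 13 were higher and 30 lower on the brightest probe set, with a median of −0.15. In limma 0 were higher (1.74% of all genes were) and 1 was lower (0.234% of all genes). At an unadjusted p under 0.05 there were 1 higher (10.6% of all genes) and 6 lower (7.31% of all genes). The groups did not overlap for 2 genes with higher values (13.9% of all genes) and 13 with lower values (11.8% of all genes). The 1 called was APOO, a subunit of MICOS, which read 6.99, 6.96 and 7.28 after transfer, against 7.96, 7.97 and 7.93 in control cells. It fell by 0.88 on the log2 scale (standard error 0.14, limma adjusted p = 0.0308). The call was kept without transfer replicate 3 (adjusted p = 0.0445) and lost without any 1 of the other 5 arrays (adjusted p up to 0.138), and on the median of its 4 probe sets the groups overlapped (difference −0.29). DNAJC11, which binds MICOS, had −0.49 (limma adjusted p = 0.136), without overlap, and −0.39 on the median.

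IMMP2L, a peptidase of the inner membrane, read 10.34, 10.36 and 10.22 after transfer, against 9.72, 9.65 and 9.34 in control cells (difference 0.74, limma adjusted p = 0.0693). The median of its 16 probe sets overlapped (0.14). XPNPEP3, an aminopeptidase that trims imported proteins, had −0.41 (limma adjusted p = 0.225) and −0.13. Of the quality control genes, PHB1, a scaffold subunit of the inner membrane, had −0.47 (limma adjusted p = 0.264) and −0.48, and CLPB, a disaggregase of the intermembrane space, had −0.30 (limma adjusted p = 0.343) and −0.35. Of the cytosolic chaperones, DNAJA1 had −0.33 (limma adjusted p = 0.289) and NACA, a subunit of the nascent chain complex on ribosomes, had −0.16 (limma adjusted p = 0.72).

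Of the transcription factors, ATF5, known to drive mitochondrial chaperone and protease genes under import stress, read 7.88, 7.78 and 8.01 after transfer, against 8.43, 8.21 and 8.33 in control cells. The groups did not overlap, and its difference was −0.43 (standard error 0.14, limma adjusted p = 0.178), with −0.54 on the median of its probe sets and 0.58 on the median of those above background. ATF4, a regulator of the integrated stress response, read 11.16, 11.11 and 11.20 after transfer, against 11.37, 11.40 and 11.39 in control cells. Its difference was −0.23 (limma adjusted p = 0.374), without overlap, and −0.41 on the median.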

How the data were processed

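Gene expression was measured in 3 transfer and 3 control samples of NK-92MI cells, grouped by their labels. Per the labels, the authors hybridised total RNA to Affymetrix whole-transcript arrays and processed them by RMA in Affymetrix Power Tools. Versions and genome build are not given in the sources used here. The deposited log2 values are thus background-corrected, quantile-normalised and summarised per probe set, and they were used without further normalisation. RMA can compress differences of dim probe sets. A value whose probe set names several genes (13116 probe sets) or none (80519) was left out. Symbols were updated through RefSeq (1726 updated, 20529 current, 65 unmatched).

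Differences are transfer minus control, fitted in limma 3.58.1 (R 4.3.3; lmFit and eBayes, Benjamini-Hochberg over all 22260 genes or 259224 probe sets, threshold 0.05). Tables were read with the data.table package (version 1.17.8). Every listed gene took its brightest probe set, and the median of its probe sets as a second summary. No filter on low values was applied. The procedure was tested on simulated data.

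The genes, classes and further lists were chosen with earlier results of these data known. Values in every sample are given for genes past the threshold in any of the 3 fits, the 3 of each class with the smallest p on either summary, and TOMM20, HSPD1, HSPE1 and HSPA9. The probe-set values of PMPCB and the second DNAJA3 probe set were chosen after their values were seen. Of the other lists, genes past the threshold and the 2 with the smallest p are named. Other normalisations, a background filter, other probe-set summaries, trend and robust options, a block on replicate number, the methods' Student's test and leaving out each array were tried. Replicate numbers recur in both groups, and the closing section gives the check of whether they pair the samples.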

Additional observations from a re-analysis of the deposited data

How the results depend on the processing

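Under quantile normalisation, cyclic loess, centring on array medians, the background filter, the mean and the median of probe sets and the median of probe sets above background (chosen after seeing the data), the median difference of the 42 genes ranged from −0.23 to −0.08, and from −0.24 to −0.10 with 1 array left out. The median of all genes was 0.005 on the values as deposited. It was 0.063 after quantile normalisation, −0.014 after cyclic loess and −0.076 after centring, where that of the 42 genes was −0.08, −0.14 and −0.23. DNAJA3 remained the called gene with each normalisation, the filter, the methods' t-test and 1 array left out. With the mean or the median of probe sets the difference of DNAJA3 was −0.21 and −0.36, and 0 genes were called. With trend and robust options 4 were, with TIMM10, TOMM40 and TRAP1 lower (adjusted p = 0.0312, 0.0225 and 0.0197). With these options 1 gene was also called on the median of probe sets (TIMM10), as was 1 on the median of probe sets above background (TIMM22), and 2 probe sets were called (DNAJA3 and PMPCB), as they were among probe sets above background alone. The shares of all genes or probe sets called with these options, or above background alone, were not counted. The cause of these changes was not tested.

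The number of the 42 genes at an unadjusted p under 0.05 was 9, but 14 after centring, with the mean of probe sets and with the methods' t-test, and 16 with trend and robust options. It was 5 to 11 with 1 array left out. Over all 22260 genes, 3789 passed the methods' t-test at this level, and the shares after centring, with the mean and with trend and robust options were not counted. With 1 array left out, the number called stayed at 1. The class median of TOM was −0.32 with the mean, −0.36 with the median and −0.31 with the median of probe sets above background (−0.25 to −0.034 with 1 array left out). That of the other import genes was −0.31, −0.15 and −0.51 under the same summaries (−0.016 to 0.19 with 1 array left out). That of the proteases was −0.22 after centring. Quantile normalisation moved the medians the other way, to −0.04 for TOM, −0.084 for TIM, −0.16 for chaperones, −0.078 for proteases and 0.19 for the other import genes. The median of all genes moved in the same directions, to 0.063 after quantile normalisation and −0.076 after centring.

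Among the genes with values given in every sample, signs reversed with the mean of probe sets for DNAJA3 (−0.21), MTX1 (−0.54), MTX2 (−0.14) and PMPCB (−0.19). With the median they reversed for DNAJA3 (−0.36), MTX1 (−0.48), PMPCB (−0.32), CLPP (0.10) and HSPE1 (0.34), and among the remaining genes for TIMM9 (−0.22), TIMM23 (−0.09), TIMM44 (−0.26) and DNAJC19 (0.20). With the median of probe sets above background they reversed for DNAJA3 (−0.18), MTX1 (−0.62), MTX2 (−0.14), PMPCB (−0.34), CLPP (0.36), HSPE1 (0.054) and ATF5 (0.58). TOMM20 reversed after centring (−0.024).

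Of the neighbouring genes, in place of 1 called there were 0 with the mean, the median and the methods' t-test, 2 with the background filter (APOO and IMMP2L), 3 with trend and robust options (APOO, IMMP2L and DNAJC11), and 0 to 1 with 1 array left out. The shares of all genes called with the filter and with these options were not counted.

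Samples with the same replicate number had deviations that correlated by 0.0691, 0.00751 and 0.00761, so the numbers were not taken to pair the samples, and of the transfer samples only replicate 1 correlated best with the control of its own number. With a block on replicate number 1 of the 42 genes was called (DNAJA3 on its brightest probe set, limma adjusted p = 0.0237), and 0 of the neighbouring genes.

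Array data hold no read depth, and the small number of arrays and the background level limit the precision. Probes that match related genes and the place of each probe set in its transcript were not examined.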
